A study of Homo sapiens with 19 samples.

Results

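The genes examined here encode NODAL and activin pathway ligands together with the co-receptor, inhibitors and nuclear partner that act on them. They were taken by symbol, as NODAL, GDF3, TDGF1, LEFTY1, LEFTY2, FOXH1, INHBA, INHBB, INHBE and INHA, and all 10 were found once among the 33382 genes of each table. RNA-seq levels in TPM, read estimates scaled for transcript length and to a common total, were available for 19 samples of H1, an established human embryonic stem cell (hESC) line.

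There were 6 constitutive genotypes with 2 samples each, namely SUZ12-/- H1, EED-/- H1, the double knockout EZH2-/-/EZH1-/- H1, the single knockouts EZH2-/- H1 and EZH1-/- H1, and the WT H1 control. EED, SUZ12 and the methyltransferases EZH1 and EZH2 form polycomb repressive complex 2 (PRC2), which places the repressive histone mark H3K27me3. The knockouts were drug-selected clones in which Cas9 and a donor template had removed a functional domain. The last 7 samples came from H1-EED-/-/EED-OE, in which endogenous EED had been deleted and a lentiviral EED transgene was kept on by doxycycline (DOX). This line gave 1 sample with DOX, whose title also carries day 28, and 1 sample each at days 8, 12, 16, 20, 24 and 28 without DOX. The EED-/-, SUZ12-/- and EZH2-/-/EZH1-/- lines are called PRC2-null below, and the other 3 lines are called the lines that retain H3K27me3. These names follow the western blots of the study, in which the PRC2-null lines lost the mark. The single knockouts kept H3K27me3 at lower levels than WT H1, and the RNA samples do not measure it. The labels do not state separate cultures, so p-values measure only the spread between these samples, which may be technical.

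NODAL and the activins are TGF-beta family ligands that signal through activin receptors to SMAD2 and SMAD3. NODAL and GDF3 need the membrane co-receptor TDGF1 (also called CRIPTO), LEFTY proteins block NODAL, and FOXH1 brings activated SMADs to target genes. In hESCs this pathway helps to hold the undifferentiated state, and in the embryo it patterns mesoderm and endoderm. INHBA, INHBB and INHBE encode the beta subunits that pair into activins, and INHA encodes the alpha subunit that turns a beta subunit into an inhibin.

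Of the 10 genes, 6 had a promoter window in the RefSeq table of GRCh38.p14. LEFTY1, LEFTY2, FOXH1 and INHBE are named only. The 250 bases before the start are shown for NODAL and GDF3, whose levels moved together in the DOX series, and for INHBA, which had the greatest rise. NODAL lies on the minus strand at chr10:70441682-70441931, GDF3 on the minus strand at chr12:7695776-7696025 and INHBA on the minus strand at chr7:41703091-41703340. Capitals mark a FOXH1 core (TGTNNATT), a SMAD element (CAGAC) or an octamer (ATGCAAAT) on either strand.
NODAL: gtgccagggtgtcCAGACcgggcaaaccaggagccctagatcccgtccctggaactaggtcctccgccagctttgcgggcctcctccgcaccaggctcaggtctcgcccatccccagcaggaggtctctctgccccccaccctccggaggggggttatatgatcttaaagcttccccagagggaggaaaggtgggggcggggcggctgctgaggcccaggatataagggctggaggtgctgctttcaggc
GDF3: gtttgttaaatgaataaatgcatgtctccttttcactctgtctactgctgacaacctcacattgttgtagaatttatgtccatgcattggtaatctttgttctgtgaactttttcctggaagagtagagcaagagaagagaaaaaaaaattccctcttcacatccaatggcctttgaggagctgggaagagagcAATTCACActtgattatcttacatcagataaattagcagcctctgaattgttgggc
INHBA: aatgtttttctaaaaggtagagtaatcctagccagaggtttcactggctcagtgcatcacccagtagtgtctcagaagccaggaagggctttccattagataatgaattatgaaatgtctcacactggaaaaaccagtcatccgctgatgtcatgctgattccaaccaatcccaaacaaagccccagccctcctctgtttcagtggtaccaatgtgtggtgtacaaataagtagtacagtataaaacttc
The NODAL window held 1 SMAD element, as 38.0% of 35116 RefSeq windows of this length did. The GDF3 window held 1 FOXH1 core, found in 9.88% of all windows, and the INHBA window held none of the 3 motifs. The octamer was in 1.63% of all windows and in no member's window. CpG dinucleotides numbered 9 in the NODAL window, 0 in that of GDF3 and 1 in that of INHBA, against a median of 11 over all windows. INHBB, with 46 CpGs, had more than 99.6% of windows. The motifs were chosen after the expression values had been seen, and the matches describe letters and were not tested as binding sites.

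The tables summed to 999999.2 to 1000001 TPM, so sequencing depth is unknown from them, and 19117 to 23012 genes were above 0. RNA of the targeted genes remained in the knockouts, with EED at 14.25 and 22.36 TPM in EED-/- H1 against 17.3 and 21.96 TPM in WT H1. Since a domain and not the whole gene was removed, these totals do not check the labels. In H1-EED-/-/EED-OE, EED was 108.54 TPM with DOX and 12.64 to 31.56 TPM without. The summed level of 8 hESC markers, POU5F1 among them, was 4277 to 5647 TPM in the lines that retain H3K27me3 and 83.52 to 239.8 TPM in the PRC2-null lines. Of the 8, 7 were called lower, so the RNA of the PRC2-null lines went against their labelled cell type. All 7 endoderm and yolk sac markers were higher in the PRC2-null lines, with sums of 1440 to 20170 TPM against 5.03 to 15.05 TPM, and TTR at 0 in all 6 samples that retain the mark. Higher calls were also made for 4 of 5 smooth muscle and fibroblast, 4 of 6 mesoderm and endothelium and 6 of 6 trophoblast and amnion markers. Of 4 neural ectoderm markers, 3 were tested and 1 was called higher. Their sums overlapped, at 67.12 to 385.1 TPM in the PRC2-null lines against 94.52 to 196.3 TPM. By the same rule, given below, 13.5% of all tested genes were called higher and 5.09% lower. The part of the cell types marked by these lists in the results below was not tested. In bulk RNA, fewer cells of a type and less RNA per cell cannot be told apart.

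Across the 2 sets of lines, INHBA was higher and TDGF1, FOXH1 and INHBE were lower in the PRC2-null lines. These 4 calls were among 9 members tested, since INHBB fell below the filter. A call needed an adjusted p of at most 0.01 from limma and a 3-fold difference on the log2(TPM + 1) scale, which understates the change of low genes. By this rule 18.6% of 19100 genes were called, 13.5% higher and 5.09% lower. The median log2 difference was -0.36 over the 9 members and 0.29 over all tested genes. The latter shrank to 0.07 with median ratio scaling. How many of all genes had ranges that did not overlap between the sets was not counted, so non-overlap below describes the members only.

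**Figure D1:**
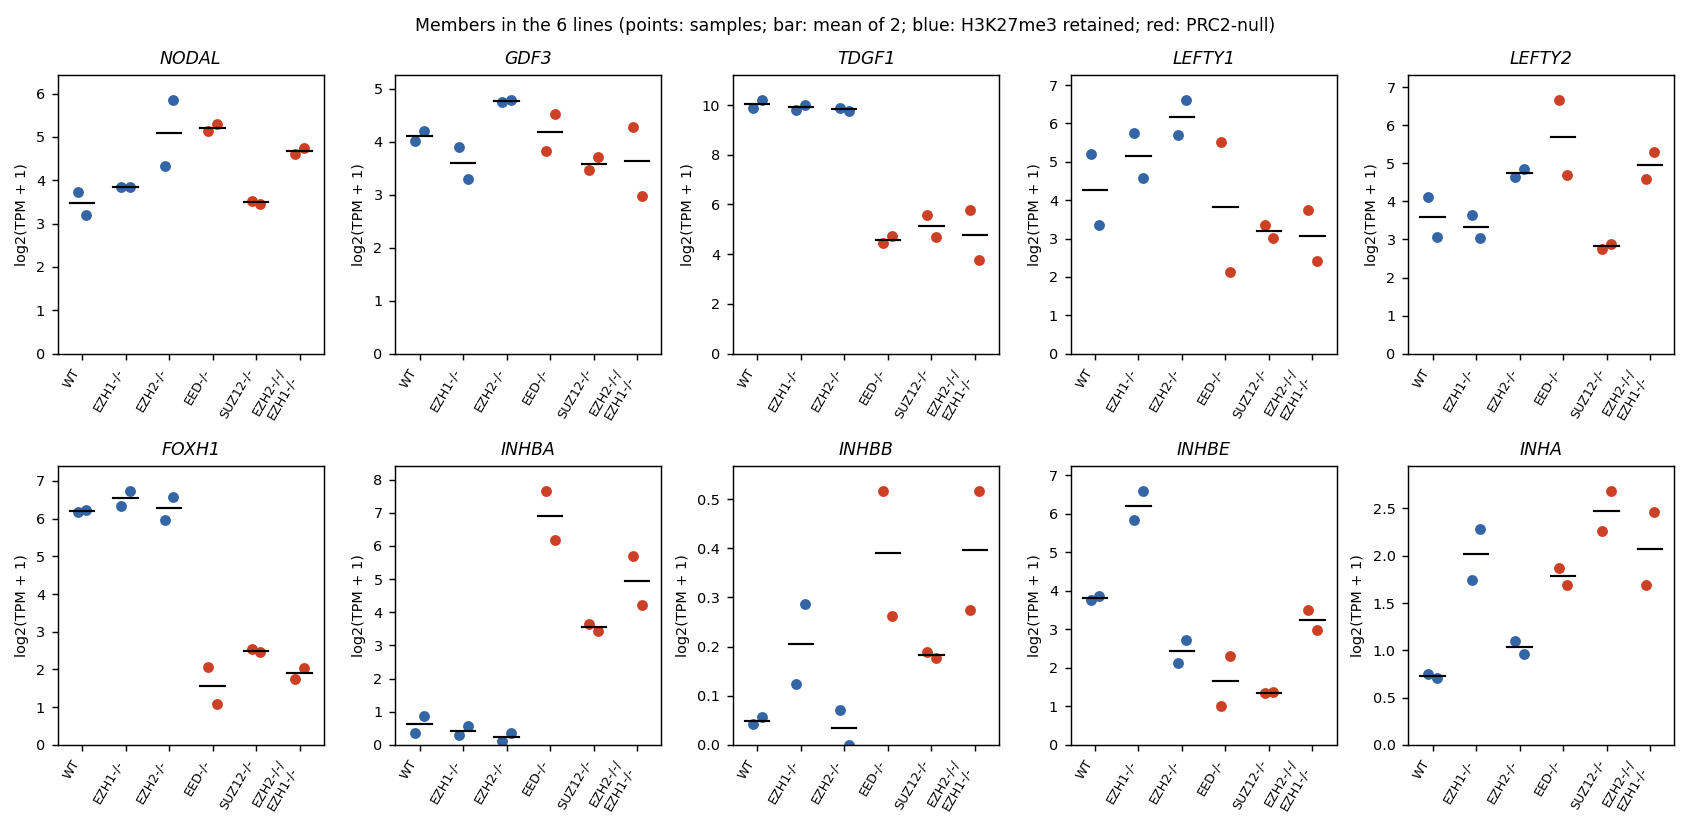
Level of each member, as log2(TPM + 1), in the 6 lines. Points are samples and bars are the means of 2 samples. TDGF1 and FOXH1 separate the blue lines (H3K27me3 retained) from the red (PRC2-null) lines downwards and INHBA separates them upwards, while the other members overlap.

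TDGF1, the co-receptor, was 938.58 and 1179.69 TPM in WT H1, 902.51 and 1019.64 TPM in EZH1-/- H1, and 944.12 and 871.59 TPM in EZH2-/- H1. It was 20.8 and 25.44 TPM in EED-/- H1, 47.13 and 25.16 TPM in SUZ12-/- H1, and 53.79 and 12.67 TPM in EZH2-/-/EZH1-/- H1. The 2 sets did not overlap. TDGF1 fell by 5.09 on the log2 scale in the PRC2-null lines (SE 0.29, limma adjusted p = 8.93e-08). The 3 PRC2-null lines themselves were not separated by the test, with limma adjusted p of 0.481 for SUZ12-/- against EED-/-. TDGF1 (chr3:46574534-46582457, GRCh38, GENCODE 44) shares 23.4% of its 75-base windows with the copy TDGF1P3, so some reads could have been split between them.

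FOXH1, the DNA-binding partner of the SMADs, was 71.2 and 74.43 TPM in WT H1, 79.92 and 104.71 TPM in EZH1-/- H1, and 60.9 and 94.88 TPM in EZH2-/- H1. In the PRC2-null lines it was 3.15 and 1.12 TPM for EED-/-, 4.78 and 4.5 TPM for SUZ12-/-, and 2.34 and 3.14 TPM for EZH2-/-/EZH1-/-. The highest PRC2-null sample lay below the lowest of the others. It fell by 4.35 on the log2 scale (SE 0.19, limma adjusted p = 1.65e-08).

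INHBA, the activin A subunit, was at 0.09 to 0.84 TPM in all 6 samples that retain H3K27me3. It was 199.78 and 70.95 TPM in EED-/- H1, 11.51 and 9.84 TPM in SUZ12-/- H1, and 51.02 and 17.46 TPM in EZH2-/-/EZH1-/- H1. The sets did not overlap, and the log2 difference was 4.71 (SE 0.31, limma adjusted p = 2.24e-07). Within the PRC2-null lines the level differed, with SUZ12-/- lower than EED-/- by a log2 difference of -3.37 (SE 0.53, limma adjusted p = 0.00139). This call was lost when EED-/- replicate 1 or either SUZ12-/- replicate was left out.

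INHBE, the activin E subunit, was 12.66 and 13.57 TPM in WT H1, 55.93 and 94.87 TPM in EZH1-/- H1, and 3.4 and 5.65 TPM in EZH2-/- H1. In the PRC2-null lines it was 1.03 and 3.98 TPM for EED-/-, 1.54 and 1.58 TPM for SUZ12-/-, and 10.27 and 6.92 TPM for EZH2-/-/EZH1-/-. The sets overlapped, because EZH2-/- H1 was as low as some PRC2-null samples. INHBE fell by 2.06 on the log2 scale between the sets (SE 0.25, limma adjusted p = 2.45e-05). The set that retains H3K27me3 was itself spread, with EZH1-/- above WT and EZH2-/- below it. Against WT H1 alone, EED-/- and SUZ12-/- were called lower. The double knockout was not called, at a log2 difference of -0.58 (SE 0.43, limma adjusted p = 0.297). INHBC, which ends 260 bases upstream of INHBE, was at 0 TPM in all 6 PRC2-null samples and 0.23 to 1.98 TPM in the others.

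INHA, the inhibin alpha subunit, was low throughout, from 0.63 to 3.86 TPM in the lines that retain H3K27me3 and from 2.22 to 5.42 TPM in the PRC2-null lines. These ranges overlapped through EZH1-/- H1, at 2.36 and 3.86 TPM, and the difference of 0.85 stayed under 3-fold (SE 0.19, limma adjusted p = 0.00196). INHBB, the activin B subunit, was at most 0.43 TPM in the 12 samples.

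NODAL was 12.31 and 8.16 TPM in WT H1, 13.33 and 13.4 TPM in EZH1-/- H1, and 19.14 and 56.82 TPM in EZH2-/- H1. It was 34.2 and 38.13 TPM in EED-/- H1, 10.5 and 10 TPM in SUZ12-/- H1, and 23.39 and 25.97 TPM in EZH2-/-/EZH1-/- H1. The sets overlapped and the log2 difference of 0.33 was not called (SE 0.23, limma adjusted p = 0.228). NODAL thus remained transcribed in PRC2-null lines in which TDGF1 and FOXH1 were low.

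GDF3, which lies 92018 bases from NANOG on chromosome 12, ranged from 6.89 to 21.96 TPM in the PRC2-null lines and from 8.79 to 26.63 TPM in the others. The ranges overlapped almost fully, and the log2 difference was -0.36 (SE 0.23, limma adjusted p = 0.197). NANOG itself was 0.37 to 8.1 TPM against 97.47 to 185.35 TPM.

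The LEFTY inhibitors differed widely between samples of some lines, but not of SUZ12-/- H1, at 1.28-fold for LEFTY1 and 1.1-fold for LEFTY2. LEFTY1 was 35.71 and 9.15 TPM in WT H1, 52.97 and 22.68 TPM in EZH1-/- H1, and 51.09 and 96.91 TPM in EZH2-/- H1. It was 44.55 and 3.38 TPM in EED-/- H1, 9.16 and 7.13 TPM in SUZ12-/- H1, and 12.36 and 4.3 TPM in EZH2-/-/EZH1-/- H1. EED-/- replicate 1 was 13.2 times replicate 2. The sets overlapped, both through that sample and through WT replicate 2, which lay below 1 sample each of SUZ12-/- and the double knockout. The difference of -1.84 was not called (SE 0.56, limma adjusted p = 0.0124), and it was called without EED-/- replicate 1 or WT replicate 2. LEFTY2 was 16.45 and 7.4 TPM in WT H1, 11.52 and 7.15 TPM in EZH1-/- H1, and 24.13 and 27.91 TPM in EZH2-/- H1. It was 100.68 and 24.98 TPM in EED-/- H1, 5.79 and 6.35 TPM in SUZ12-/- H1, and 23.29 and 38.52 TPM in EZH2-/-/EZH1-/- H1. The EED-/- and double knockout levels lay above both WT samples and the SUZ12-/- levels below them, and the pooled difference of 0.59 was not called (SE 0.32, limma adjusted p = 0.127). SUZ12-/- was lower than EED-/- by a log2 difference of -2.86 (SE 0.56, limma adjusted p = 0.005), a call lost without EED-/- replicate 1 or either SUZ12-/- replicate, and without the filter on low values.

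The 2 LEFTY genes lie 25215 bases apart on chromosome 1 and share 23.7% of the 75-base windows of LEFTY1 and 18.9% of those of LEFTY2. LEFTY2 made up 17.9% to 44.7% of the summed LEFTY TPM in the 6 samples that retain H3K27me3, with a median of 27.8%. In the PRC2-null samples the share was 38.7% to 90%, with a median of 67.3%. LEFTY2 was the more abundant in 4 of 6 PRC2-null samples and in 0 of 6 others, and both SUZ12-/- samples stayed below an equal share.

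**Figure D2:**
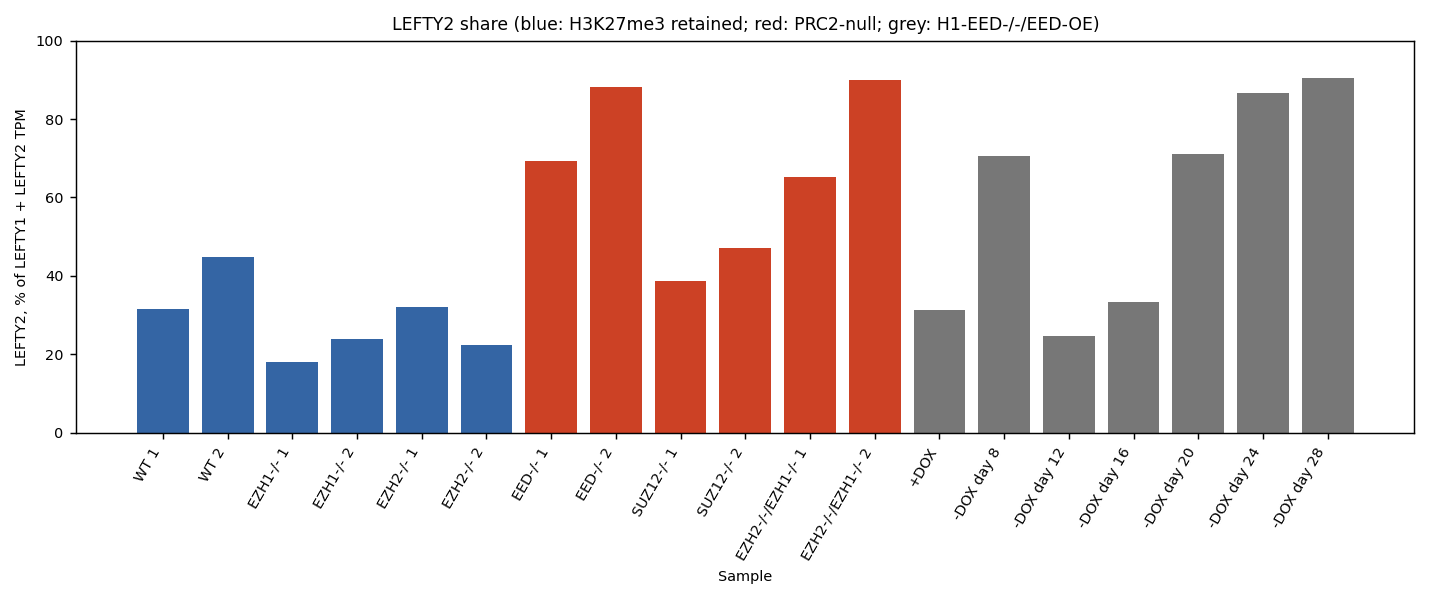
LEFTY2 as a percentage of LEFTY1 plus LEFTY2 TPM in each of the 19 samples. Bars are single samples, coloured by set. The share reached 90% in the double knockout and 90.6% at day 28 without DOX, against 17.9% in EZH1-/- replicate 1.

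Against WT H1 alone, 6 members were called in EED-/- H1, where 22.3% of genes were called, 5 in SUZ12-/- H1 against 19.7%, and 3 in EZH2-/-/EZH1-/- H1 against 17.3%. INHBA rose and TDGF1 and FOXH1 fell in all 3 lines. EED-/- H1 also had higher NODAL, at a log2 difference of 1.75 (SE 0.40, limma adjusted p = 0.00404), higher LEFTY2 and lower INHBE. With median ratio scaling, the NODAL call was lost at 1.37 (limma adjusted p = 0.0285) and the LEFTY2 call at 1.71 (limma adjusted p = 0.0278). LEFTY2 also lost its call with a pseudocount of 0.1, without the filter, without trend and robust variance and in a fit of the 4 samples alone, where the limma adjusted p was 0.0105 to 0.0375. SUZ12-/- H1 had higher INHA, at 1.74 (SE 0.32, limma adjusted p = 0.00124), and lower INHBE. Only INHBA, TDGF1 and FOXH1 remained called in EED-/- H1 when WT replicate 1, WT replicate 2 or EED-/- replicate 1 was left out, and NODAL lost its call without EED-/- replicate 2 too. In SUZ12-/- H1, INHBA and INHA lost their calls without WT replicate 1, leaving 3. INHBA also lost its call without SUZ12-/- replicate 1, and INHA without WT replicate 2 or SUZ12-/- replicate 2.

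**Figure D3:**
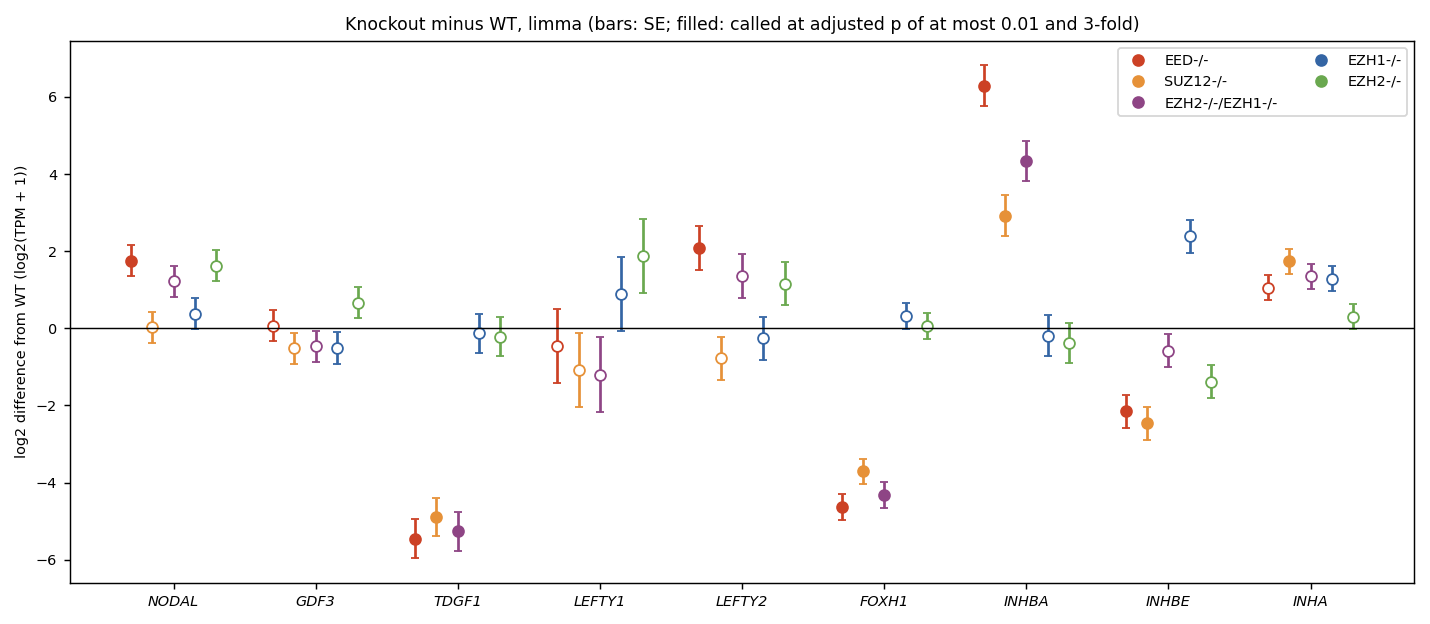
Log2 difference of each tested member from WT H1 in the 5 knockout lines, on the log2(TPM + 1) scale. Points are limma estimates, bars are SE and filled points passed the call. INHBA is filled above 0 and TDGF1 and FOXH1 below 0 in the 3 PRC2-null lines, and no point is filled for EZH1-/- or EZH2-/-.

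The single EZH knockouts gave 0 calls by limma among the members, with 0.0995% of genes called in EZH1-/- H1 and 0% in EZH2-/- H1. At an unadjusted p under 0.05 there were 2 members in each. They were INHBE and INHA in EZH1-/- H1, and NODAL and INHBE in EZH2-/- H1. The share of all genes at that unadjusted level was not counted, so these counts describe the members only. NODAL in EZH2-/- H1 had a log2 difference of 1.63 from WT H1 (SE 0.40, limma adjusted p = 0.372). That estimate was near the 1.75 of EED-/- H1, where NODAL was called, but its samples agreed less. NODAL differed 2.97-fold between the EZH2-/- samples and 1.11-fold between the EED-/- samples. The EZH2-/- difference was 2.39 without its replicate 1 and 0.87 without its replicate 2. The EED-/- difference was 1.83 and 1.67 in the same way. INHBE in EZH1-/- H1 had a log2 difference of 2.39 from WT H1 (SE 0.43, limma adjusted p = 0.0337). Between the single knockouts, a comparison chosen after INHBE had been seen, INHBE was lower in EZH2-/- by a log2 difference of -3.77 (SE 0.43, limma adjusted p = 0.00589). It was the only member called, where 0.0838% of genes were, and it was not called when any of the 4 samples was left out, nor with a pseudocount of 0.1, without the filter or without trend and robust variance. Among the PRC2-null lines, SUZ12-/- against EED-/- gave 2 calls where 6.12% of genes were called. The double knockout gave 0 calls by limma against EED-/-, with 0.089% of genes called and 2 members at an unadjusted p under 0.05. It also gave 0 against SUZ12-/-, with 4.46% of genes called and 4 members at that level. For these comparisons too, the share of all genes at the unadjusted level was not counted.

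At day 8 after DOX withdrawal, NODAL, LEFTY1, LEFTY2 and INHBE were lower than in the +DOX sample. With 1 sample at each point there is no replicate check and no test. The title of the +DOX sample carries day 28, so DOX and days in culture may both differ from the day 8 sample. NODAL was 1.85 TPM against 8.88 TPM, LEFTY1 1.45 TPM against 28.5 TPM, LEFTY2 3.5 TPM against 12.9 TPM, and INHBE 1.92 TPM against 12.32 TPM. These 4 passed 3-fold, as 3.37% of 19011 genes did. The LEFTY1 ratio was 19.7, while the 2 WT samples differed 3.9-fold and the 2 EED-/- samples 13.2-fold. NODAL differed 4.8-fold, while the 2 WT samples differed 1.51-fold and the 2 EZH2-/- samples 2.97-fold. LEFTY2 differed 3.69-fold, which was less than the 4.03-fold between the 2 EED-/- samples, with 2.22-fold between the WT samples. INHBE differed 6.42-fold, against 1.07-fold between the WT samples and 3.86-fold between the EED-/- samples. With the mean of the WT samples as reference, LEFTY2 no longer passed. TDGF1 at 678.39 TPM and FOXH1 at 97.87 TPM were within 1.09-fold of the +DOX sample, and POU5F1 was 2422.1 TPM against 2916 TPM. The day 8 sample also had SOX2 at 417.44 TPM against 131.44 TPM, summed neural ectoderm markers of 235.1 TPM against 78.34 TPM, and summed trophoblast and amnion markers of 50.74 TPM against 14.19 TPM, with CDX2, CGA and TP63 at 0. Their part in the low NODAL and LEFTY levels was not tested.

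Levels were higher again at days 12 and 16. NODAL was 85.03 TPM at day 12, 275.84 TPM at day 16, 50.3 TPM at day 20, 5.4 TPM at day 24 and 57.02 TPM at day 28. GDF3 was 11.18 TPM at day 8, then 63.86, 187.33, 26.01, 5.57 and 58.4 TPM over the same days. Both ligands were thus highest at day 16, low at day 24, and high again at day 28. LEFTY1 was 72.03, 99.03, 72.55, 1.9 and 1 TPM from day 12 to day 28. LEFTY2 was 23.46, 49.16, 179.05, 12.33 and 9.62 TPM over those days. The LEFTY genes therefore did not follow NODAL at day 28.

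From day 8 to day 16, NODAL, GDF3, LEFTY1 and LEFTY2 were higher past 3-fold, where 3.87% of genes differed. Of the 10 members, NODAL, GDF3, LEFTY1, TDGF1 and FOXH1 had their highest level of the series at day 16, which was so for 8.72% of genes. From day 20 to day 24, 6 members were lower past 3-fold, and INHBA was higher, where 8.37% of genes differed. From day 24 to day 28, NODAL, GDF3 and INHBA were higher, where 5.37% did. These pairs of days and the count of genes highest at day 16 were chosen after the values had been seen. POU5F1 was 1579.78 TPM at day 20 and 46.24 TPM at day 24. TDGF1 was 270.09 TPM and 74.06 TPM at those days, and FOXH1 75.74 TPM and 2.77 TPM.

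INHBA was listed at 0 TPM at days 12, 16 and 20, at 4.6 TPM at day 24 and at 33.91 TPM at day 28, against 0.14 TPM with DOX. INHBE stayed at 0.65 to 1.92 TPM on all withdrawal days. By day 28, 7 members differed past 3-fold from the +DOX sample, as 23.5% of genes did. NODAL, GDF3 and INHBA were higher, and TDGF1, LEFTY1, FOXH1 and INHBE were lower. With median ratio scaling, GDF3 was no longer past 3-fold. INHBB was at most 0.69 TPM on any day.

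The receptors, mediators and targets around these genes moved as follows between the PRC2-null lines and the lines that retain H3K27me3. All 3 extracellular inhibitors were higher, namely the activin binders FST, with a log2 difference of 4.71, and FSTL3, with 2.78, and the NODAL antagonist CER1, with 4.47. Both convertases that cut ligand precursors were higher, FURIN by 2.41 and PCSK6 by 2.22. Of 5 receptors, the co-receptor TGFBR3 was higher, by 3.13, and 4 were not called. Of 6 intracellular mediators, SMAD3 was higher, by 2.00, and 5 were not called. Of 7 target genes, 4 were higher, led by EOMES at 2.65, GSC at 1.93 and T at 1.84. The 3 other ligands tested were not called. Over all genes tested in this contrast, 13.5% were called higher and 5.09% lower. The adjusted p of these named calls ran from 3.1e-08 for FST to 6.04e-06 for T (limma).

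In the DOX series, CER1 was lower at day 8 than with DOX and high at day 16, as NODAL was. CER1 was 2.12 TPM with DOX, 0.54 TPM at day 8, 441.59 TPM at day 16, 4.98 TPM at day 24 and 247.96 TPM at day 28. MIXL1, a mesendoderm transcription factor, was 1.34 TPM with DOX, 0.16 TPM at day 8 and 302.7 TPM at day 16, but only 5.33 TPM at day 28. EOMES, another such factor, was 0.08 TPM with DOX, 0.15 TPM at day 8, 115.27 TPM at day 16, 15.96 TPM at day 24 and 43.43 TPM at day 28. EOMES, GSC and T were not lower at day 8, with GSC at 0.19 TPM with DOX and 0.78 TPM at day 8 and T at 0 and 0.68 TPM. CER1 and EOMES were lower at day 24 than at days 20 and 28, as NODAL and GDF3 were. SMAD7, an inhibitory SMAD, was 16.63 TPM with DOX, 4.94 TPM at day 8 and 18.79 TPM at day 16. On the log2(TPM + 1) scale, the day 8 falls of CER1, MIXL1 and SMAD7 stayed under 3-fold. The listed targets SKIL and PMEPA1 changed little. SKIL was 11.51 TPM with DOX and 11.11 TPM at day 8, and PMEPA1 was 13.03 TPM and 11.91 TPM. FST was 45.82 TPM at day 8, above its 4.03 TPM with DOX, and 493.87 TPM at day 28. The summed endoderm and yolk sac markers were 7.83 TPM at day 8, 25.58 to 86.31 TPM at days 12 and 16, and 442.7 TPM at day 20, and their part in these levels was not tested.

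Over all 19 samples, the gene whose pattern was most like that of NODAL was GDF3, with a Pearson r of 0.816 on log2(TPM + 1), followed by FAM167A at 0.793 and NATD1 at 0.791. GDF3 was nearest to STOX2 at 0.828, NODAL at 0.816 and TUBB2A at 0.807. TDGF1 was nearest to EXO1 at 0.986, FOXH1 to ZSCAN10 at 0.979, INHBA to PRICKLE2 at 0.988 and INHBE to GPT2 at 0.942. LEFTY1 was nearest to CORO2A at 0.828, LEFTY2 to CXXC5 at 0.785 and INHA to SMPD3 at 0.903. The samples share lines and a culture series, so these values are descriptions.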

How the data were processed

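RNA-seq of H1 lines gave 1 gene table per sample. The authors mapped reads to a GRCh38 mRNA reference with Bowtie2 and deposited RSEM estimates as TPM (tool versions are left out here), and sequencing depth cannot be read from TPM. The 19 samples were grouped by their labels. Levels were analysed as log2(TPM + 1) in limma 3.58.1 (R 4.3.3), with 1 fit over the 12 samples of the 6 lines, trend and robust variance, and Benjamini-Hochberg adjustment over genes at 1 TPM or more in at least 2 samples. The DOX samples, with 1 per point, were compared by fold only. The fit was tested on simulated data. Named genes were the 10 members, the called genes of each pathway list (at most 3 per direction), the 3 genes most correlated with each member, and the pluripotency and targeted genes. Other tested target genes were named in the DOX series. The members and lists were chosen with earlier results of these data known, and 1 listed target gene is not reported here. Coordinates are from GENCODE 44 and promoter sequence from RefSeq. Alternatives covered the pseudocount, filter, threshold, scaling, variance model, replicate block, left-out samples and summed LEFTY genes.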

Additional observations from a re-analysis of the deposited data

Results flagged for a closer look

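Among the PRC2-null lines, INHBA and LEFTY2 differed between SUZ12-/- H1 and EED-/- H1 by a limma test of the difference itself, with log2 differences of -3.37 and -2.86 (SUZ12-/- minus EED-/-). INHBE differed between EZH2-/- H1 and EZH1-/- H1, with a log2 difference of -3.77. The last comparison was chosen after the values had been seen. As described above, each of these calls was lost when certain single samples were left out. The LEFTY2 and INHBE calls were also lost without the filter on low values.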

How the results depend on the processing

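No single member's called difference changed direction under any alternative tried, and 119 of 140 counts stayed within 1.5 times. Shares of all genes called under these alternatives are not given, so the counts below describe the members only. At an adjusted p of at most 0.05 with no fold cutoff, calls came to 5 for EZH2-/-/EZH1-/- against WT, 1 for EZH1-/- against WT and 2 for the double knockout against SUZ12-/-. The fit of only 4 samples gave 1 for EZH1-/- against WT. Without the filter, SUZ12-/- against EED-/- gave 1, as it did with the LEFTY genes summed, and EZH2-/- against EZH1-/- gave 0 without the filter, with a pseudocount of 0.1 and without trend and robust variance. Leaving out each replicate gave 3 to 5 for EED-/- against WT, 3 to 4 for SUZ12-/- against WT, 0 to 2 for SUZ12-/- against EED-/-, 0 to 1 for the double knockout against EED-/-, and 0 for EZH2-/- against EZH1-/-. Replicate numbers follow accession order and pair nothing (mean correlation of same-numbered deviations -0.0027). With a replicate block, 5 members were called between the sets of lines against 4, LEFTY1 being the addition, which median ratio scaling also made, and the calls were otherwise the same in number. Sequencing depth is unknown, and a lone remaining sample was assumed to vary like the other groups.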
